A study of Mus musculus with 12 samples.

Results

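Ischemia set B consisted of 4 of the 12 mouse kidneys in the series, whose titles name them conscious while their group field names anaesthesia, and it was compared here with the 4 control kidneys, so that 8 kidneys entered the comparison. All came from male C57BL/6J mice. By the study's methods, control kidneys were taken at nephrectomy, and ischemic kidneys were taken after ischemia and 24 h of reperfusion. The treatment label gives 20 min of ischemia, for the controls as well. The other 4 kidneys, ischemia set A, entered the fit and are used for a single comparison at the end. The title of each ischemic kidney and its group field disagree on whether the mouse was anaesthetised, so no state of anaesthesia was assigned to either set. The labels do not say whether a control kidney and an ischemic kidney came from the same mouse, and replicate numbers did not pair kidneys. Elsewhere the study speaks of sham surgery, so how the controls were handled is unclear. Kidneys taken at nephrectomy would have had no day of recovery, and ischemia, operation and time could then not be told apart in this contrast.

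The proximal tubule reabsorbs most of the filtered salt, glucose, amino acids and phosphate, and runs on fatty acid oxidation. Its straight part in the outer medulla is the segment most easily injured when blood flow stops. After injury, surviving tubule cells are known to lose transporters, to switch on stress and developmental genes and to divide. The comparison asked what this looked like across the whole kidney, with attention to receptors, channels, transcription factors, adhesion molecules and enzymes.

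Libraries of the 8 kidneys held between 15367342 and 39155807 counts, with 15367342 to 29905140 in set B and 20364386 to 39155807 in control. In a principal component analysis, the first component carried 34.7% of the variance and separated all 4 set B kidneys (39.4 to 120.8) from all 4 controls (-86.4 to -77.1). The next component carried 17.2% and set apart set B kidney 4 (126.6, against -87.4 to -33.5 in the other 3). That kidney also had the smallest library (15367342 counts) and the fewest genes detected (10116) of the 12 kidneys. The part of depth in its position was not tested. Zeros in the table cannot be read as absence from the tissue. Ambp and Akr1b3, which kidney cells make in quantity, and Ren1 were listed at 0 in all 12 kidneys, B2m at 0 to 43 counts, and S100a8, Hba-a1 and Isg15 at 0; these genes were chosen after their values were seen. Among genes with a mean of 20 to 100 counts, 51.3% had a 0 in at least 1 control kidney and 51.9% in at least 1 set B kidney. Levels are given below as CPM, counts scaled to library sizes with TMM factors, with the kidneys in the order 1 to 4, and means are ± SD with n = 4. Fold changes are set B minus control on a log2 scale. Their standard error (SE) was derived from the test, as the absolute fold change over the square root of its F statistic.

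Of 11664 genes tested, 2659 passed an adjusted p of 0.05 (22.8%). Of these, 1269 were higher in set B (10.9% of the genes tested) and 1390 were lower (11.9%). The ranges of the 4 set B and the 4 control kidneys did not overlap for 3110 genes (26.7%). The median log2 fold change over all genes tested was -0.02. The genes called higher took 16.7 to 17.7% of the counts in control kidneys and 33.6 to 35.5% in set B kidneys, while those called lower took 34.5 to 36.3% and 14.96 to 17.97%. These shares describe the called genes and do not test them. Within set B, kidney 4 lay farthest from the controls in both directions, with median shifts of 1.12 and -1.43 on the log2 scale, and kidney 1 lay nearest, with 0.95 and -1.08. Without set B kidney 4, 2509 genes were called, and 2312 of the 2659 genes were called again with the same sign. In every one of the 8 fits that left out a kidney, 1864 of them were called, 855 higher and 1009 lower.

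**Figure D1:**
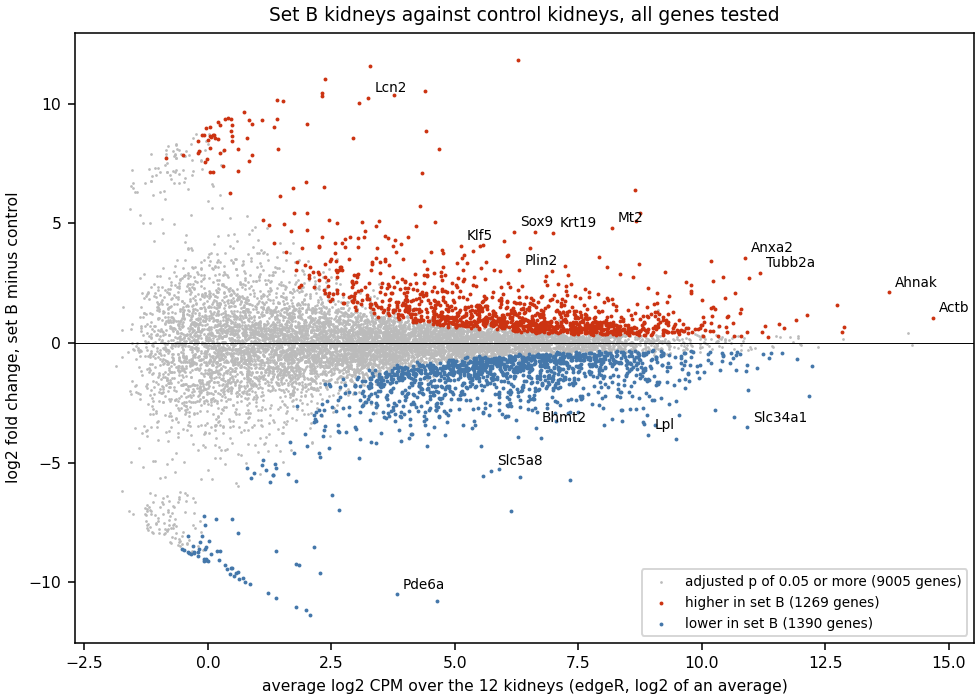
Log2 fold change of set B against control (vertical axis) by edgeR's average log2 CPM, the log2 of an average over the 12 kidneys (horizontal axis), 1 point per gene tested. Red points are the 1269 genes higher and blue points the 1390 genes lower at an adjusted p under 0.05. Anxa2 and Ahnak combine a high level with a rise, and Slc34a1 and Lpl a high level with a fall.

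Measured in counts, 5 of the 6 largest gains were in genes of the cell cortex and cytoskeleton. Actb, the cytoplasmic actin, stood at 14938, 15364, 14632 and 13828 CPM in control and 32932, 33715, 31705 and 23974 CPM in set B (log2 fold change 1.06 ± 0.13 SE, adjusted p = 3.17e-06). Ahnak, a giant scaffold protein under the plasma membrane, stood at 4277, 3778, 5911 and 4153 CPM in control and at 18399, 25099, 18162 and 16780.4 CPM in set B, a 4.33-fold difference (log2 2.11 ± 0.14). Annexin A2, which joins membranes to actin in a calcium-dependent way, had the largest fold of this group. Anxa2 stood at 215, 220.3, 330.5 and 158 CPM in control and at 3097, 3306, 2473 and 1927 CPM in set B (log2 fold change 3.55 ± 0.20 SE, adjusted p = 2.29e-10). Myh9, the heavy chain of nonmuscle myosin IIA, went from 2804 ± 171 CPM in control to 8444 ± 778 CPM in set B. The beta-tubulin Tubb2a rose 7.55-fold (426 to 3219 CPM), although it shares sequence with close tubulin copies and its counts are uncertain. The nuclear RNA Malat1 rose 2.27-fold. No set B kidney overlapped the controls for any of these 6 genes, which is part of the rule that chose them.

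The largest losses in counts included genes of tubule metabolism and transport. Slc34a1, the main sodium-phosphate cotransporter of the brush border, stood at 4849, 5090.5, 4559 and 5186 CPM in control. It stood at 685, 323, 488 and 209 CPM in set B (log2 fold change -3.53 ± 0.29 SE, adjusted p = 2.66e-08), with kidney 4 lowest and kidney 1 highest. Gpx3, the plasma glutathione peroxidase that the kidney secretes, fell from 7403 ± 897 CPM in control to 3821 ± 1321 CPM in set B. Cyp4b1, a monooxygenase of fatty acids and foreign compounds, fell by 3.09 ± 0.22 on the log2 scale. Mdh1, the cytosolic malate dehydrogenase, was even across kidneys, at 1061, 949, 981 and 1036 CPM in the 4 set B kidneys against 3483, 4430.1, 3808 and 3822 CPM in control. Chpt1, which completes the synthesis of phosphatidylcholine, went from 2779.7 to 395 CPM. In whole-kidney RNA, fewer cells of a type and less RNA per cell cannot be told apart.

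Genes that the study's readable pathway and gene tables do not list were ranked at 2 or more on edgeR's average log2 CPM. That is the log2 of an average level, and a gene can reach it through its high group alone. Among these genes, the 15 largest rises were 16.8- to 29.7-fold. Mt2, a metallothionein that binds zinc and copper (chr8:94172664-94173568 in mm10), stood at 11.03, 11.1, 27.1 and 15.4 CPM in control and at 229, 397, 452 and 719 CPM in set B (log2 fold change 4.80 ± 0.34 SE, adjusted p = 3.70e-09). Every set B kidney was far above every control, and kidney 4 was highest. Clu, the extracellular chaperone clusterin (chr14:65968483-65981547), stood at 7.34, 8.03, 3.898 and 6.06 CPM in control and at 112, 156, 165 and 193 CPM in set B. Set B and control were again far apart. Its log2 fold change of 4.62 ± 0.24 had the smallest error of the 15 (adjusted p = 8.96e-11). Krt19, a keratin of simple ducts (chr11:100140810-100148665), stood at 16.1, 8.84, 6.95 and 6.53 CPM in control and 124, 163, 196 and 439 CPM in set B, again with kidney 4 highest (log2 4.60 ± 0.38).

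Several of the 15 were transcription factors or repair and signalling genes at a low level in control. Sox9, a factor of nephron development and tubule repair (chr11:112782224-112787760), stood at 2.45, 9.31, 0 and 3.03 CPM in control and at 79.7, 73.8, 115 and 106 CPM in set B (log2 fold change 4.63 ± 0.64 SE, adjusted p = 1.98e-05). Its control mean of 3.70 CPM was 1.83 CPM without kidney 2. Atf3, a stress-induced factor of the CREB family (chr1:191170296-191218039), stood at 2.54, 2.11, 0.116 and 0 CPM in control and 18.6, 33.4, 34.3 and 53.8 CPM in set B (log2 4.89 ± 0.83). The Atf3 control mean of 1.19 CPM was 0.740 CPM without kidney 1. Ercc1, the partner of a nuclease in excision repair of DNA, stood at 0.624, 1.3, 1.003 and 1.07 CPM in control and at 12.3, 9.43, 32.3 and 34.9 CPM in set B. The set B kidneys split for Ercc1, with kidneys 3 and 4 above kidneys 1 and 2. Akap12, a scaffold for protein kinase A, went from 1.24 ± 1.99 CPM in control to 25.1 ± 5.69 CPM in set B, with a control mean of 0.254 CPM without kidney 4. The adhesion molecule Nrcam went from 0.607 to 15.6 CPM and the secreted protein Lgi2 from 0.585 to 17.8 CPM. Nt5c1a, which makes adenosine from AMP in the cytosol, went from 0.433 to 9.26 CPM.

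The other 5 rises were Slc34a2, the sodium-phosphate cotransporter known from gut and lung (1.12 to 19.4 CPM), the secreted protein Wfdc2 (0.609 to 13.3 CPM), Anxa3 (0.484 to 9.02 CPM), D430041D05Rik (0.637 to 11.7 CPM) and the phospholipase C Plch2 (0.221 to 6.203 CPM). Slc34a2 stood at 17.01, 14.1, 15.9 and 30.5 CPM in set B, where its proximal relative Slc34a1 was lower. For Anxa3, set B kidney 4 held 1.14 CPM, next to the highest control at 1.12 CPM. Set B kidney 4 was far above the others for Wfdc2 (3.57, 8.16, 5.46 and 36 CPM), and the set B mean without it was 5.73 CPM. It was highest for Plch2 as well (3.13, 6.2, 2.27 and 13.2 CPM), with a mean of 3.87 CPM without it. The control means of Nrcam, Lgi2, Nt5c1a, Wfdc2, Anxa3, D430041D05Rik and Plch2, all under 1 CPM, each moved by over 1.5 times without 1 control kidney, to between 0 and 0.387 CPM. Plch2 was no longer past the threshold without set B kidney 4 (adjusted p = 0.0560).

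The 15 largest falls under the same rule were 15.5-fold or more. Pde6a, a catalytic subunit of the rod photoreceptor phosphodiesterase, stood at 41.7, 50.6, 46.7 and 30.1 CPM in control. It had 2 counts in all 4 set B kidneys together against 5174 in the controls, a ratio of 1720 with a 95% counting interval of 475 to 14200. Slc5a8, a sodium-coupled transporter of lactate and short-chain fatty acids in the straight proximal tubule (chr10:88885992-88929515), stood at 148, 140.3, 145 and 166 CPM in control and 5.36, 3.23, 3.72 and 2.29 CPM in set B (log2 fold change -5.34 ± 0.35 SE, adjusted p = 1.28e-09). Ttc36, a tetratricopeptide repeat protein (chr9:44799397-44803072), varied in control (168, 329, 96.6 and 305 CPM) yet stood at 7.72, 4.68, 1.93 and 4.19 CPM in set B. C1qtnf3, a secreted member of the C1q and TNF family, stood at 110.5, 161, 220.1 and 179.6 CPM in control and at 5.73, 5.25, 6.29 and 0.0635 CPM in set B, kidney 4 being the lowest.

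Enzymes made up much of the rest of these falls. Ces1d, a carboxylesterase, stood at 299.9, 269, 263 and 273 CPM in control and 33.3, 10.8, 11.8 and 13.3 CPM in set B. Agphd1, a kinase of hydroxylysine, went from 208 ± 18.6 CPM in control to 13.4 ± 3.43 CPM in set B. Akr1c21, an aldo-keto reductase of steroids, was at 0 in 3 set B kidneys and at 0.472 CPM in kidney 1, against 16.1, 20.1, 19.4 and 16.9 CPM in control. Ces1d, Akr1c21 and Ugt3a1, a glycosyltransferase (23.1 to 0.816 CPM), have close copies in the genome, so their counts are uncertain. Hpd, of tyrosine breakdown, went from 26.1 to 1.47 CPM, although its adjusted p was 0.0699 with robust dispersions. Pm20d1, which forms N-acyl amino acids, went from 38.7 to 2.25 CPM, and Acsm1, which activates medium-chain fatty acids, from 10.5 to 0.414 CPM. The potassium channel subunit Kcng1 went from 16.1 to 0.206 CPM. The set B means of Ugt3a1, Acsm1 and Kcng1, under 1 CPM, and of Pm20d1 moved by over 1.5 times without 1 set B kidney, to 0.539, 0.226, 0 and 1.39 CPM. Slc22a7, an organic anion transporter, went from 13.2 to 0.499 CPM (0.0112 CPM without set B kidney 2) with an adjusted p of 0.032, which rose to between 0.0523 and 0.0949 in 8 of the 17 alternatives, among them DESeq2 and leaving out control kidney 1, 2 or 3 or set B kidney 1, 3 or 4.

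**Figure D2:**
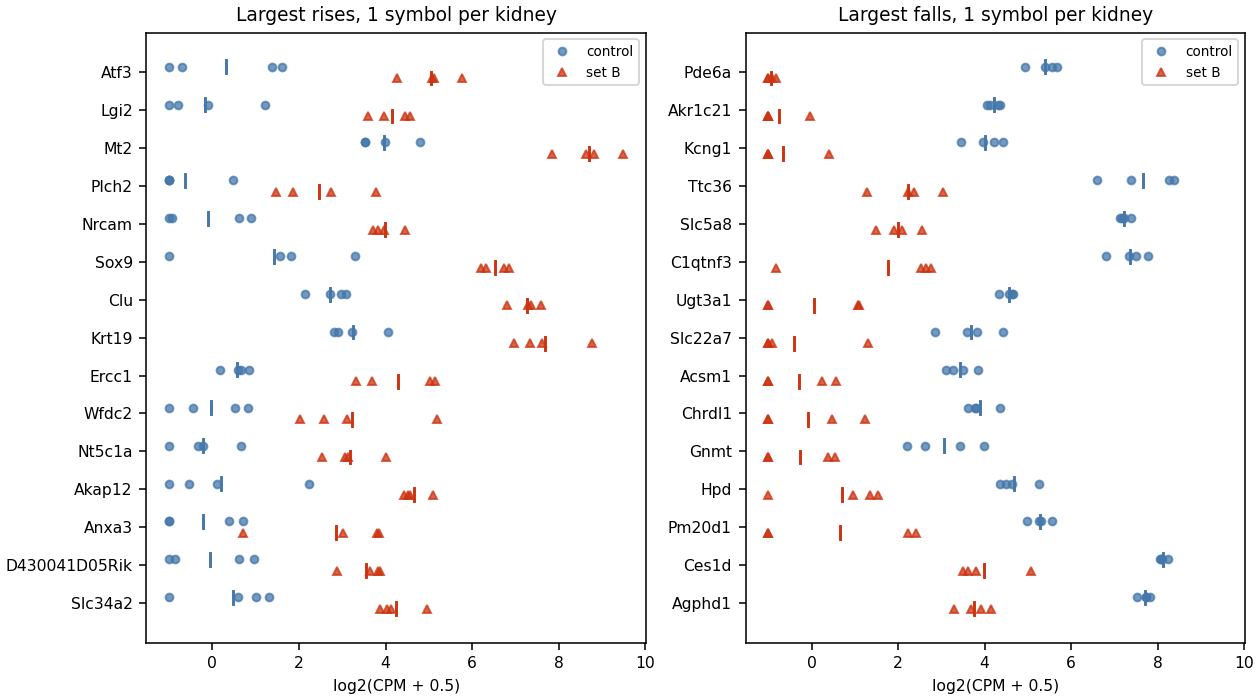
The 15 largest rises (left) and falls (right) outside the study's tables, as log2(CPM + 0.5) per kidney on the horizontal axis, with circles for control kidneys, triangles for set B kidneys and bars for group means. The groups are apart in each gene by the rule, with the narrowest gap in Anxa3.

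Markers of the nephron segments did not move alike. For the first proximal segment, all 6 markers fell, and their summed level was 6560.0 to 7121 CPM in control and 535 to 1566 CPM in set B. For the last proximal segment, all 5 tested markers were lower, with a sum of 843 to 1086 CPM in control against 38.4 to 97.3 CPM in set B. Slc7a13, the cystine and aspartate transporter of that segment, stood at 12.3, 8.29, 7.795 and 11.5 CPM in control and had 1 count in set B, and Acsm3 went from 455 to 8.74 CPM. Lrp2, the endocytic receptor megalin of the early segments, stood at 740.5, 719.7, 837 and 764 CPM in control and 187, 112, 94.9 and 39.2 CPM in set B. Slc4a4, the basolateral bicarbonate exit of the proximal tubule, stood at 463, 247, 429 and 219 CPM in set B against 789.9, 883, 743 and 734 CPM in control (log2 fold change -1.21 ± 0.23 SE, adjusted p = 6.05e-04). In both segment sums, kidney 4 was the lowest of set B and kidney 1 the highest.

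In the thick ascending limb, 2 of 5 markers fell. Egf, the growth factor that this segment releases, stood at 226, 211, 194 and 192 CPM in control and at 2.53, 2.78, 0 and 0.889 CPM in set B, and the salt cotransporter Slc12a1 went from 1512 ± 42.3 CPM in control to 256 ± 184 CPM in set B (165 CPM without kidney 4). Umod, the urinary protein of the same segment, stood at 119, 111, 114 and 116 CPM in control and 75.97, 96.1, 133 and 208 CPM in set B and did not pass the test (log2 0.16 ± 0.24, adjusted p = 0.742). In the distal convoluted tubule, Calb1, a calcium buffer, fell from 629 ± 102 CPM in control to 153 ± 53.9 CPM in set B, while Slc12a3, the thiazide-sensitive cotransporter, stood at 879.8, 1125, 803 and 1051 CPM in control and 675, 893, 919 and 1021 CPM in set B (adjusted p = 0.59). Of 3 tested thin limb markers, none passed by edgeR or DESeq2, 2 were higher at an unadjusted p under 0.05 and 1 by limma. None of the 5 principal cell markers passed by edgeR, DESeq2 or limma, with 0 at an unadjusted p under 0.05, and their sums overlapped (110.1 to 162 CPM in control, 66.5 to 221 CPM in set B). Of the 6 intercalated cell markers, Slc4a1, the chloride and bicarbonate exchanger of acid-secreting cells, fell (42.3, 26.9, 30.3 and 38.8 CPM in control and 3.302, 3.1, 4.401 and 6.79 CPM in set B), and the other 5 did not pass. Slc4a1 is also a gene of red cells. The 2 tested erythroid markers, the beta-globin gene Beta-s and Alas2, were lower in set B as well, although Alas2 lost its call in 5 alternatives. The part of blood in the fall of Slc4a1 was not tested.

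Outside the tubule, markers went both ways. Podxl, Wt1 and Synpo of podocytes rose, and the podocyte sum was 247 to 337 CPM in control and 328 to 507 CPM in set B. The podocyte calls were not firm, since without set B kidney 3 none of the 3 passed, and the adjusted p over the 17 alternatives reached 0.0684 for Podxl, 0.0867 for Wt1 and 0.137 for Synpo. Of the matrix and mesangial markers, 3 of 5 tested were higher, and of the smooth muscle markers 2 of 4. Col1a1 stood at 354, 425, 366 and 329 CPM in control and 1188, 964, 1998 and 946 CPM in set B. Col3a1 went from 39.5 ± 7.01 CPM in control to 205 ± 59.3 CPM in set B, and Acta2, the actin of smooth muscle and myofibroblasts, from 204 ± 65.99 CPM in control to 647 ± 153 CPM in set B. Col1a2 was higher too (145, 155, 129 and 121 CPM in control, 194, 216, 333 and 169 CPM in set B) but lost its call in 5 alternatives, among them leaving out control kidney 1, 3 or 4 or set B kidney 3. Pdgfra (adjusted p = 0.521), Pdgfrb (0.775), Myh11 (0.869) and Cnn1 (0.845) did not pass. None of the 6 tested endothelial markers passed by edgeR, DESeq2 or limma, with 1 lower at an unadjusted p under 0.05. Of 5 tested macrophage markers, 1 passed, the receptor Csf1r, which fell (40.7, 53.4, 62.7 and 51.6 CPM in control and 7.95, 10.5, 19.5 and 4.19 CPM in set B) and holds most of the summed level in control. Cd68 stood at 1.25, 0.442, 1.66 and 0 CPM and 0, 2.72, 1.06 and 8.698 CPM, and Emr1 (adjusted p = 0.75), C1qb (0.86) and Mrc1 (0.43) did not pass either. Of the T cell markers, Cd3e was lower, at 1.103, 4.73, 0.695 and 0.784 CPM in control and 0 in all set B kidneys (adjusted p = 0.0472), and lost its call in 10 alternatives, among them leaving out any of the 8 kidneys, while the other 4 with a row were at 0. Neutrophil, B cell, adipocyte, adrenal, mesothelium, pancreas and skeletal muscle markers were at or near 0 in all 8 kidneys, which for genes of this table bears on detection only.

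Of the urothelium markers, 4 were tested, the keratins Krt5 and Krt20 rose, and neither of the others passed by edgeR, although 1 was lower by DESeq2 and by limma. Krt5, a keratin of basal cells, stood at 11.2, 9.33, 11.5 and 5.44 CPM in control and 105, 74.3, 145 and 267 CPM in set B (log2 fold change 3.98 ± 0.38 SE, adjusted p = 1.71e-07). Krt20 stood at 0.2398, 0.026, 0 and 0 CPM in control and 22.1, 41.4, 26.9 and 14.03 CPM in set B. The uroplakins, which define the urothelial surface, were at or near 0. Upk2 was at 0 in all 8 kidneys and Upk3a in 7 of them, Upk1a was at or below 2.11 CPM, and Upk1b at or below 3.36 CPM.

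**Figure D3:**
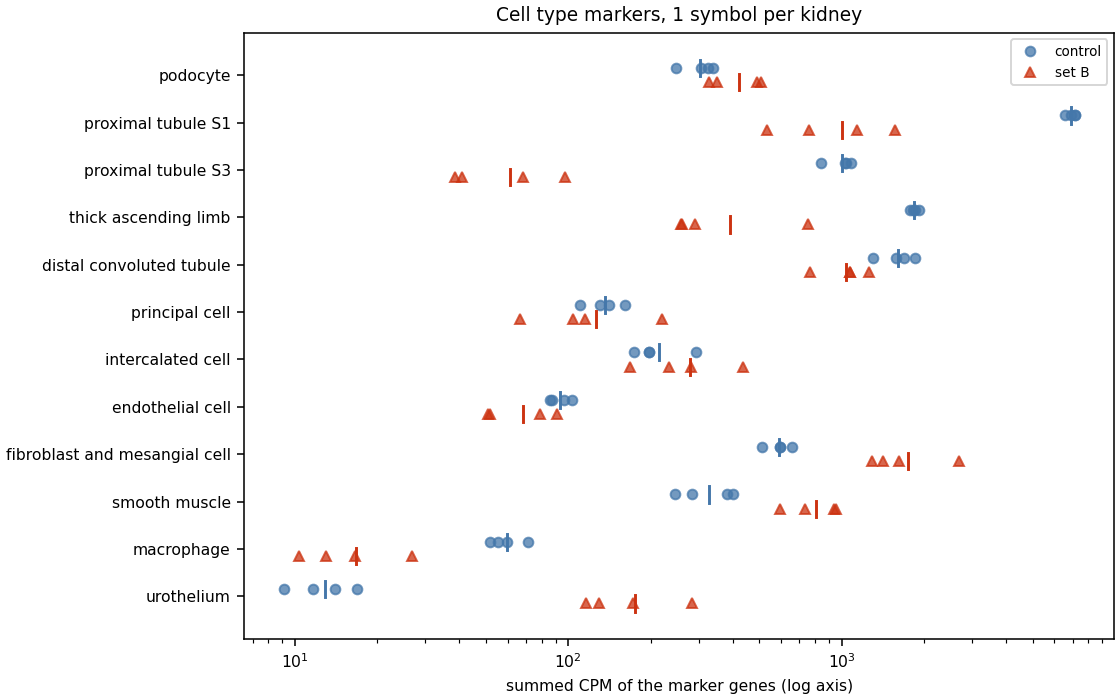
Summed CPM of the marker genes of 12 cell types (horizontal log axis), with circles for control kidneys, triangles for set B kidneys and bars for means. The groups lie apart for both proximal segments, the thick ascending limb, distal convoluted tubule, fibroblast, smooth muscle, macrophage (mostly Csf1r) and urothelium lists, and overlap for principal, intercalated and endothelial cells and podocytes.

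Regulators and functional groups were read from 34 gene lists with 1300 members, of which 1297 had a row in the table. For each list the counts are to be set beside 10.9% higher and 11.9% lower over all genes tested and their median of -0.02. The lists held 289 called genes, of which 215 were called in all 17 alternatives and 4 in each alternative that tested them. Members described below as higher or lower are among those 215 unless the alternatives are named.

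Nuclear receptors, which switch genes in response to hormones and lipids, were lower in all but 1 of the 16 that passed: 1 of 38 tested members rose and 15 fell (median log2 fold change -0.69). Hnf4a, a main regulator of proximal tubule identity, stood at 1426, 1598, 1402 and 1541 CPM in control and 742, 431, 565 and 262 CPM in set B (log2 fold change -1.58 ± 0.22 SE, adjusted p = 2.48e-05). The vitamin D receptor Vdr (log2 -1.46 ± 0.17), the thyroid hormone receptor Thrb (-1.60 ± 0.26), the retinoid partner Rxra (-1.48 ± 0.31), the oxidative regulator Esrra (-1.31 ± 0.25) and the glucocorticoid receptor Nr3c1 (-0.60 ± 0.14) fell. Nr1d1 and Nr1d2, which repress genes in the circadian clock, fell by 1.25 ± 0.15 and 1.73 ± 0.23 on the log2 scale. Nr4a2, an immediate early gene, was the single member that rose (14.3, 9.12, 6.29 and 11.1 CPM in control, 25.9, 35.8, 46.7 and 22.1 CPM in set B).

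Factors of kidney development split. In this list, 11 of 36 tested members rose and 7 fell (median log2 fold change 0.38). Those that rose included Sox9 and Sox4 (23.7 to 66.9 CPM), Pax8, a factor of the nephron lineage (log2 0.87 ± 0.16), Tfap2a (1.65 ± 0.27), and the epithelial factors Elf3 (2.08 ± 0.37), Ehf (1.79 ± 0.45) and Grhl2 (1.60 ± 0.37, with a set B mean of 62.7 CPM, or 40.4 CPM without kidney 4). Those that fell included Irx3, a patterning factor of the tubule (-1.68 ± 0.31), and the early nephron factors Lhx1 (-2.88 ± 0.79, with a set B mean of 2.56 CPM, or 1.63 CPM without kidney 3) and Emx1 (-2.88 ± 0.75).

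The Kruppel-like factors are zinc finger regulators of differentiation, and 5 of 13 tested members rose and 3 fell (median log2 fold change 0.77). Klf5 (chr14:99298691-99315036) stood at 2.01, 4.78, 4.05 and 1.49 CPM in control and 50.9, 60.6, 29.1 and 66.9 CPM in set B (log2 fold change 4.06 ± 0.36 SE, adjusted p = 7.03e-08), with kidney 3 lowest. Klf6 went from 23.2 ± 6.49 CPM in control to 185 ± 38.4 CPM in set B, and Klf4 from 3.63 to 12.4 CPM. In the other direction, Klf15, which answers to glucocorticoids and marks mature cells, stood at 37.1, 42.01, 26.5 and 48.01 CPM in control and 1.72, 2.66, 12.3 and 4.95 CPM in set B, kidney 3 being the highest.

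Hormone receptors at the cell surface were lower in all but 1 of the 10 that passed: 1 of 31 tested members rose and 9 fell (median log2 fold change -0.68). The growth hormone receptor Ghr stood at 166, 193, 182 and 196 CPM in control and 60.1, 48.5, 34.2 and 17.5 CPM in set B (log2 fold change -2.20 ± 0.28 SE, adjusted p = 8.44e-06). The parathyroid hormone receptor Pth1r went from 292 ± 27.9 CPM in control to 89.8 ± 28.97 CPM in set B, the calcium-sensing receptor Casr from 611 to 291 CPM, the natriuretic peptide receptor Npr2 from 185 to 69.96 CPM, and Insr and Igf1r by -0.50 ± 0.13 and -0.69 ± 0.14 on the log2 scale. The exception, the thyrotropin receptor Tshr, had no count in any control kidney and stood at 0, 1.71, 5.66 and 0 CPM in set B kidneys 1 to 4, so the groups overlapped. It lost its call in 9 of the 17 alternatives and was not tested in 1, and those 9 included leaving out any control kidney or set B kidney 2 or 3. Without control kidney 1, 6 members of the list were called in place of 10. Among secreted peptides, 3 of 18 tested members rose and 3 fell (median log2 fold change 0.51). Lcn2, the iron-binding injury protein, had 1 count in the 4 controls together and 9.4, 27.2, 8.95 and 15.7 CPM in the set B kidneys, a ratio of 1720 with a 95% counting interval of 308 to 68100. Vgf, a neuropeptide precursor, had no count in control and stood at 2.26, 0, 3.34 and 14.9 CPM in set B, a mean 49.3 times the control floor of 3 counts per library. Kidney 4 was far above the others, kidney 2 was at 0 like the controls, and the ratio to the floor was 17.9 without kidney 4. Vgf was not tested in the fit of only the groups compared and was called in the other alternatives. Vegfa (-0.66 ± 0.12) and Fgf1 (-2.02 ± 0.42), growth factors for vessels and epithelium, fell.

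In the Wnt list, 1 of 32 tested members rose and 5 fell (median log2 fold change -0.02), or 18.8% called, against 22.8% over all genes tested. The antagonist Sfrp1 stood at 274, 256, 155 and 239 CPM in control and 25.1, 15.2, 36.03 and 49.7 CPM in set B, and the receptors Fzd1 (-1.84 ± 0.36), Lrp6 (-0.98 ± 0.11) and Lgr4 (-0.73 ± 0.15) fell. Ctnnb1, the shared effector, was higher by 0.27 ± 0.09 with an adjusted p of 0.0371, which lay between 0.0501 and 0.144 in 10 of the 17 alternatives, among them leaving out control kidney 1, 2 or 4 or any set B kidney. In the Notch list, 5 of 22 tested members rose and 0 fell (median log2 fold change 0.19), with 2 lower at an unadjusted p under 0.05 none lower by DESeq2 and 1 lower by limma. The receptor Notch2 (0.59 ± 0.14), the coactivator Maml3 (1.16 ± 0.26) and the adaptor Numbl (2.54 ± 0.47) were among those that rose. For BMP and activin signalling, 5 of 33 tested members rose and 7 fell (median log2 fold change -0.07). The ligands Bmp4 and Bmp7 fell by 1.06 ± 0.25 and 1.14 ± 0.25 on the log2 scale, and Id4, a BMP target, went from 47.1 to 11.7 CPM. The antagonists went both ways, with Fst (13.8 to 39.3 CPM) higher and Chrdl1 (14.6 to 0.685 CPM, or 0.295 CPM without set B kidney 1) lower. Inhba went from 0.449 to 5.34 CPM (control mean 0.122 CPM without kidney 2), with an adjusted p of 0.0526 to 0.103 in 8 alternatives, among them leaving out control kidney 1, 3 or 4 or set B kidney 1, 2 or 3.

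Phosphatases and Sprouty proteins damp MAP kinase signalling, and 5 of 22 tested members rose and 3 fell (median log2 fold change 0.40). Dusp5, a nuclear ERK phosphatase, stood at 4.89, 4.52, 3.203 and 3.27 CPM in control and 72.6, 82.1, 89.4 and 28.9 CPM in set B (log2 fold change 4.11 ± 0.33 SE, adjusted p = 2.29e-08), with kidney 4 lowest. Dusp10 (4.64 to 21.97 CPM), Dusp8 (2.36 to 17.8 CPM, with a control mean of 1.23 CPM without kidney 1) and Spry2 (243 to 489.9 CPM) rose as well, while Errfi1, an inhibitor of EGF receptors, went from 112 to 50.1 CPM. The list held 5 called members in place of 8 without control kidney 1 or without set B kidney 4.

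In the prostaglandin list, 1 of 24 tested members rose and 3 fell (median log2 fold change 0.25), a share of falls close to that over all genes tested. Hpgd, which inactivates prostaglandins, went from 10.8 ± 1.94 CPM in control to 1.33 ± 0.856 CPM in set B, and the epoxide hydrolase Ephx2 from 50.7 to 7.36 CPM, while the prostaglandin carrier Slco2a1 rose (10.5, 5.72, 5.13 and 5.51 CPM in control, 30.5, 31, 40.2 and 15.4 CPM in set B). In the purine list, 1 of 21 tested members rose and 5 fell (median log2 fold change -0.02). Adenosine kinase Adk went from 387 ± 56.8 CPM in control to 148 ± 15.99 CPM in set B, and the nucleotide pyrophosphatase Enpp3 from 49.7 to 13.9 CPM. Panx1, a channel that releases ATP, was at 0 in all controls and at 3.504, 0.3796, 0.532 and 4.25 CPM in set B, a mean 20.8 times the control floor (14.2 times without kidney 4). It was not tested in the fit of only the groups compared, where it fell below the low-count filter, and was called in the other alternatives.

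No potassium channel gene passed as higher by edgeR or DESeq2, with 1 at an unadjusted p under 0.05: 0 of 25 tested members rose and 6 fell (median log2 fold change -0.93). Kcnk5, a background channel of the proximal tubule, went from 499.7 ± 63.7 CPM in control to 153 ± 65.8 CPM in set B, and the basolateral subunits Kcnj15 (216 to 66.5 CPM) and Kcnj16 (141 to 73.9 CPM) fell. Kcnt1 stood at 22.5, 21.2, 24.7 and 30.2 CPM in control and 0.337, 0.822, 0 and 11.9 CPM in set B, so that kidney 4 carried the set B mean of 3.27 CPM, which was 0.386 CPM without it. It was lower with an adjusted p of 0.0369, between 0.0549 and 0.113 in 8 alternatives (DESeq2 gave no adjusted p), among them leaving out any of the controls or set B kidney 1 or 2. Chloride and TRP channels went both ways, and 5 of 34 tested members rose and 8 fell (median log2 fold change 0.07). Piezo1, which senses membrane stretch, stood at 70.5, 57.1, 64.2 and 74.7 CPM in control and 154, 173, 147 and 213 CPM in set B (log2 fold change 1.37 ± 0.15 SE, adjusted p = 9.09e-07), and Clic1 went from 55.7 to 187 CPM. Pkd2, whose loss causes polycystic kidneys (-0.74 ± 0.19), Trpc1 (-1.31 ± 0.20), Trpm7 (-0.98 ± 0.15) and Clcn3 (-1.11 ± 0.12) fell.

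Transporters of metals and vitamins held several falls. For zinc and copper, 3 of 24 tested members rose and 5 fell (median log2 fold change -0.31). Slc39a8, an importer of zinc and manganese, went from 12.6 to 0.856 CPM (0.401 CPM without set B kidney 4), Slc39a5 from 44.2 to 11.5 CPM, and the copper importer Slc31a1 from 157 to 59.9 CPM, whereas the injury-induced importer Slc39a14 rose by a log2 of 0.69 ± 0.16. For vitamins and nucleosides, 0 of 18 tested members rose and 4 fell (median log2 fold change -1.39), with 0 higher also at an unadjusted p under 0.05. Folr1, the folate receptor of the brush border, stood at 595, 799, 649.7 and 731 CPM in control and 192, 153, 131 and 96.5 CPM in set B (log2 fold change -2.28 ± 0.20 SE, adjusted p = 5.07e-08), and the vitamin C transporter Slc23a1 went from 123 to 30.1 CPM. For ABC transporters, 4 of 37 tested members rose and 8 fell (median log2 fold change -0.68). The exporters Abcb1b (3.36 to 11.9 CPM) and Abcc1 (12.1 to 30.2 CPM) rose, and Abca13 (34.8 to 2.78 CPM), Abca8a (30.6 to 3.71 CPM) and the peroxisomal importer Abcd3 (279 to 139 CPM) fell. Abcc3 was higher (0.775 to 5.602 CPM), with an adjusted p of 0.0577 to 0.116 in 7 alternatives, among them leaving out control kidney 2, 3 or 4 or set B kidney 3.

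Junction and adhesion genes included several that rose from low control levels. In the list of desmosomes and cadherins, 8 of 28 tested members rose and 3 fell (median log2 fold change -0.29). Periplakin, Ppl, stood at 5.08, 5.51, 5.36 and 4.78 CPM in control and 44.6, 66.1, 38.5 and 91.3 CPM in set B (log2 fold change 3.53 ± 0.30 SE, adjusted p = 4.06e-08). Desmoplakin, Dsp, went from 59.2 ± 4.61 CPM in control to 211 ± 123 CPM in set B, E-cadherin, Cdh1, from 22.3 to 61.3 CPM, and Cdh6, a cadherin of the developing tubule, from 7.23 to 29.8 CPM. Of gap junction genes, 2 of 10 tested members rose and 2 fell (median log2 fold change -0.15), a count of 4 that was 2 in the fit of only the groups compared, where 2 of the members were not tested. Gjb1 and Gjb2, connexins of epithelia, fell (-1.15 ± 0.31 and -2.10 ± 0.56). Among guidance molecules, 8 of 52 tested members rose and 5 fell (median log2 fold change 0.03), or 25% called, close to the 22.8% over all genes tested. Epha2, an ephrin receptor of epithelia, stood at 12.1, 7.36, 6.25 and 5.67 CPM in control and 81.6, 55.5, 63.4 and 70.9 CPM in set B, Plxna1 went from 76.8 to 176 CPM, and Sema4g fell from 67.8 to 9.705 CPM.

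Matrix genes went both ways. For proteoglycans, 4 of 27 tested members rose and 4 fell (median log2 fold change -0.85). Syndecan 1, Sdc1, stood at 2.11, 1.46, 4.13 and 0.314 CPM in control and 15.4, 16.9, 35.01 and 23.8 CPM in set B, whereas the glypican Gpc4 went from 542 ± 40.6 CPM in control to 109 ± 27.6 CPM in set B and podocan, Podn, from 47.6 to 9.29 CPM. Without control kidney 4, 5 members were called in place of 8. Among serpins, which inhibit proteases, 3 of 13 tested members rose and 1 fell (median log2 fold change 0.50). Serpinf2, the plasmin inhibitor, stood at 118, 104, 131 and 114 CPM in control and 23.6, 2.404, 17.3 and 16.95 CPM in set B. Only 2 serpins were called in each of 4 fits without a kidney (control 2 or 3, set B 1 or 2). For ADAM proteases, 4 of 24 tested members rose and 4 fell (median log2 fold change 0.25). Adamts1 went from 18.1 ± 5.11 CPM in control to 103 ± 29.6 CPM in set B, Adamts4 from 0.501 to 6.63 CPM (control mean 0.332 CPM without kidney 1), and Adamts15 fell from 30.5 to 6.31 CPM. The list held 4 or 5 called members in place of 8 without control kidney 2 or 4 or set B kidney 3.

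Innate immune lists held few calls in this table. None of 20 tested interferon-stimulated genes passed by edgeR (median log2 fold change -0.66). At an unadjusted p under 0.05, 4 were lower, 1 passed as lower by DESeq2, and several defining members, such as Isg15, were listed at 0. For toll-like receptors and the inflammasome, 1 of 13 tested members rose and 1 fell (median log2 fold change 0.26). The lipopolysaccharide co-receptor Cd14 had no count in control and stood at 3.605, 0.886, 7.74 and 0 CPM in set B, a mean 29.4 times the control floor (14.4 times without kidney 3), and the groups overlapped. It fell below the low-count filter in the fit of only the groups compared and was called in the other alternatives. Irak2 went from 10.7 to 3.18 CPM, with an adjusted p of 0.0566 to 0.133 in 8 alternatives, among them leaving out control kidney 1, 2 or 4 or set B kidney 1, 3 or 4. The list held 1 called member in place of 2 in 9 alternatives. In the list of mucins and galectins, 3 of 11 tested members rose and 1 fell (median log2 fold change 0.86). Lgals3, a galectin made by injured tubules and macrophages, went from 8.18 ± 3.96 CPM in control to 104 ± 46.7 CPM in set B, and Lgals1 from 24.1 to 112 CPM. Pigr, the carrier of polymeric antibodies, was lower (19.1 to 6.34 CPM), with an adjusted p of 0.0541 to 0.0812 in 5 alternatives, among them leaving out control kidney 1, 2 or 4 or set B kidney 1 or 2.

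Lipid storage genes that passed were lower except for a coat protein of the droplet. In this list, 1 of 29 tested members rose and 6 fell (median log2 fold change -0.70). Plin2 stood at 10.3, 10.1, 11.5 and 10.8 CPM in control and 108, 101, 77.4 and 64.1 CPM in set B (log2 fold change 3.03 ± 0.20 SE, adjusted p = 1.25e-09), the highest value being in kidney 1. Lpl, the lipase that frees fatty acids from lipoproteins (chr8:68880491-68907448), stood at 946, 1494, 1274 and 1261 CPM in control and 99.6, 89.8, 80.4 and 73.6 CPM in set B (log2 fold change -3.86 ± 0.19 SE, adjusted p = 5.18e-11). The fatty acid receptor Cd36 went from 70.96 ± 5.801 CPM in control to 16.2 ± 2.43 CPM in set B, Dgat2, which makes triglyceride, from 200.1 to 59.2 CPM, and Cideb from 148 to 23.7 CPM. For sphingolipids, 3 of 34 tested members rose and 6 fell (median log2 fold change -0.32). The sphingosine 1-phosphate exporter Spns2 went from 40.3 ± 3.08 CPM in control to 110.0 ± 26.4 CPM in set B. Sphk1, which makes that lipid, had no count in control and 237 counts in set B, a mean 29.9 times the control floor (21.2 times without set B kidney 3). Smpdl3a (97.7 to 14.7 CPM) and the galactolipid enzyme Ugt8a (398 to 86.1 CPM) fell.

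Genes of autophagy and protein folding that passed were mainly lower. Of autophagy genes, 2 of 43 tested members rose and 12 fell (median log2 fold change -0.36). Gabarapl1, an ATG8 family member, stood at 1139, 1047, 908 and 955 CPM in control and 188, 249, 267 and 177 CPM in set B (log2 fold change -2.20 ± 0.15 SE, adjusted p = 2.85e-09), the mitophagy receptor Bnip3 went from 32.3 to 9.99 CPM, and Atg3 from 206 to 115 CPM. The riser Atg7 (0.90 ± 0.26) was not past the threshold without control kidney 1 (adjusted p = 0.0584), and the riser Sqstm1 (0.58 ± 0.17) without set B kidney 2 (0.0733). In the endoplasmic reticulum, 0 of 42 tested members rose and 15 fell (median log2 fold change -0.47), and none was higher at an unadjusted p under 0.05 or by DESeq2 either. Herpud1, of the degradation machinery, stood at 207, 191, 176 and 259 CPM in control and 47.9, 54.2, 55.9 and 60.8 CPM in set B, the disulfide isomerase Pdia3 went from 1197 ± 94.4 CPM in control to 627 ± 81.7 CPM in set B, and the lectin chaperones Canx and Calr changed by -0.64 ± 0.10 and -0.68 ± 0.16. Of cilium genes, 1 of 46 tested members rose and 4 fell (median log2 fold change -0.60), both shares below those over all genes tested. Both Ift122 (253 to 79.5 CPM) and Ift172 (121 to 64.03 CPM), of transport along the cilium, fell.

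Enzymes of folate and methyl group metabolism had the largest share of falls among the 34 lists. In this list, 2 of 33 tested members rose and 16 fell (median log2 fold change -0.97). Bhmt2, which remethylates homocysteine, went from 246 ± 30.7 CPM in control to 21.1 ± 6.37 CPM in set B (log2 fold change -3.54 ± 0.22 SE, adjusted p = 6.99e-10). Cbs, of transsulfuration, stood at 68.9, 61.9, 70.9 and 58.2 CPM in control and 9.43, 8.29, 6.63 and 6.54 CPM in set B, and Gnmt at 15.3, 10.2, 5.67 and 4.08 CPM and 0.809, 0.949, 0 and 0 CPM. The mitochondrial Shmt2 (720.3 to 209 CPM) and the cytosolic Aldh1l1 (615 to 235 CPM) and Mthfd1 (218 to 78.7 CPM) fell too. The 2 that rose were the mitochondrial folate enzymes Mthfd2, at 0, 0, 0.309 and 0.0261 CPM in control and 2.06, 2.59, 5.32 and 4.63 CPM in set B, and Mthfd1l (1.004 to 10.9 CPM). In the same direction as these, 7 of 35 tested members rose and 0 fell (median log2 fold change 0.27) in the list of aminoacyl-tRNA synthetases, which charge tRNAs with amino acids. Vars stood at 50.6, 47.1, 48.7 and 57.5 CPM in control and 148, 129, 161 and 125 CPM in set B, Wars went from 17.5 to 35.4 CPM, Gars from 161 to 251 CPM and Aars from 132 to 191 CPM. None was lower at an unadjusted p under 0.05 or by DESeq2. Without control kidney 3 or set B kidney 3, 4 synthetases were called in place of 7.

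Among chromatin enzymes, 7 of 57 tested members rose and 3 fell (median log2 fold change 0.19). The share of rises was close to that over all genes tested and the share of falls below it (17.5% called, against 22.8%). The members named next are examples. The arginine methyltransferase Prmt1 stood at 87.4, 137, 149.6 and 134 CPM in control and 294, 339, 294 and 307 CPM in set B, the Polycomb methyltransferase Ezh2 went from 31.1 ± 4.89 CPM in control to 61 ± 5.34 CPM in set B, Kdm1a from 65.7 to 110.3 CPM and Setd1a from 53.5 to 104 CPM, while the deacetylase Hdac5 fell from 211 to 118 CPM. For enzymes that build glycans, 2 of 29 tested members rose and 7 fell (median log2 fold change -0.41). Galnt11, which starts O-glycans, went from 241 ± 17.8 CPM in control to 36.8 ± 19.8 CPM in set B, the branching enzyme Gcnt1 from 128 to 15.8 CPM, and Fut9 from 162 to 26.3 CPM, while B4galnt1 (1.36 to 9.77 CPM) and B4galt6 (1.67 to 11.2 CPM), of glycolipids, rose.

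**Figure D4:**
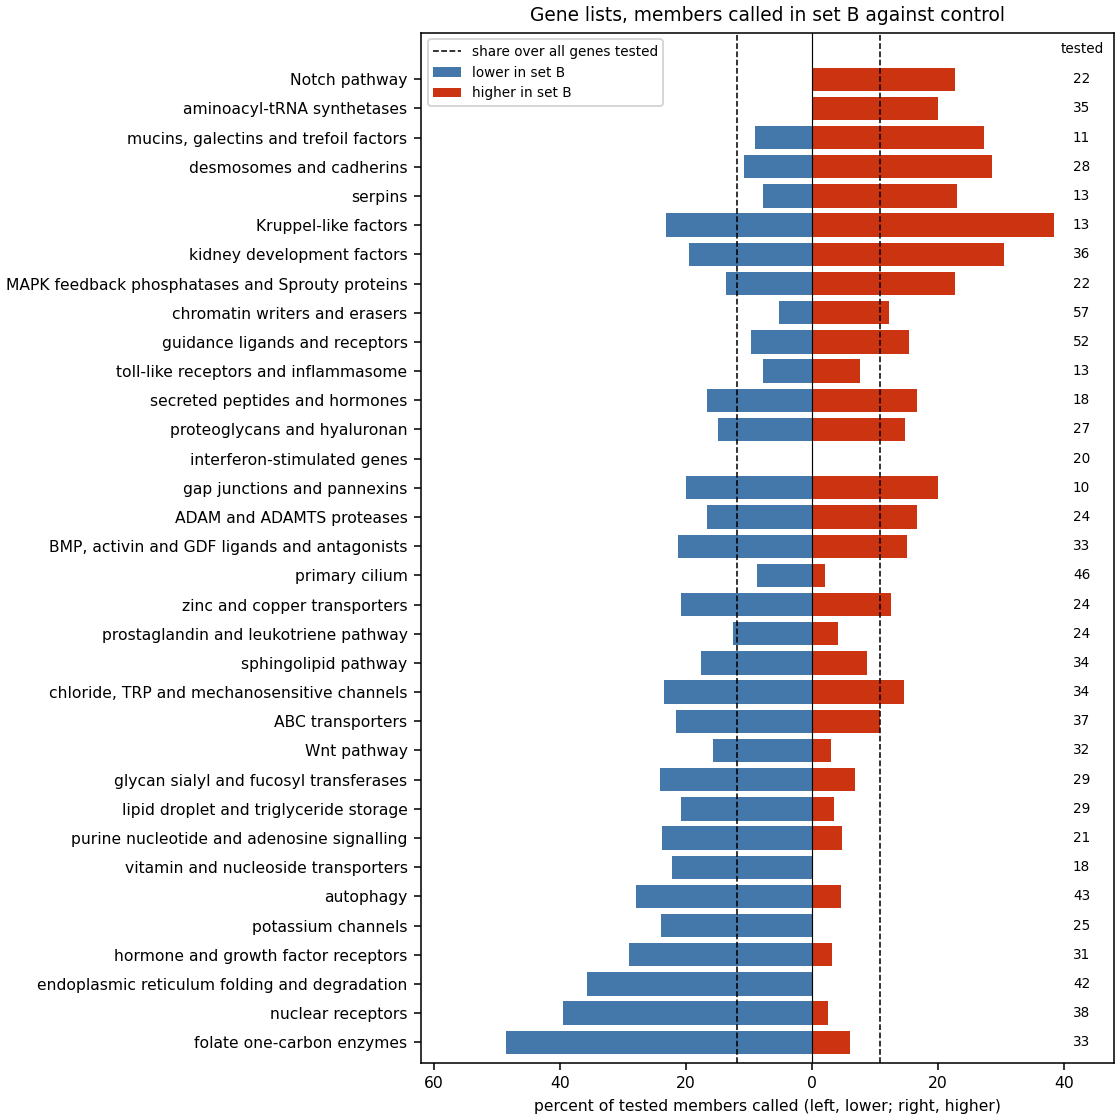
Percent of tested members called lower (left, blue) and higher (right, red) in set B for the 34 gene lists, with the number tested at the right and dashed lines at the shares over all genes tested. Nuclear receptors, folate enzymes and endoplasmic reticulum genes reach far to the left, and the Notch and aminoacyl-tRNA synthetase lists have bars on the right alone.

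Motifs were counted in short promoter windows of the called genes, with no test of a difference. RefSeq windows from 250 bases before to 50 after the start (GRCm38.p6) were matched by symbol for 948 genes called higher and 1066 called lower, and both strands were searched. The AP-1 site TGANTCA was in 4.96% of the windows of genes called higher, 4.03% of those called lower and 4.62% of those of all genes tested. The NF-kB site GGGANTTCC was in 2.11%, 1.13% and 2.23%, the CRE TGACGTCA in 2.74%, 2.44% and 3.16%, and the TEAD site GGAATGT in 2.85%, 3.10% and 2.57%. The HNF1 half-site motif GTTAATNNT was in 0.949% (9 windows) and 1.97% (21 windows), with 1.41% over all genes tested, and the HNF4 site CAAAGTCCA in 2 and 6 windows. The E2F site TTCCCGCC was in 3.16%, 4.13% and 4.12%, the E-box CACGTG in 10.7%, 12.3% and 10.4%, TATAAA in 8.02%, 8.82% and 6.78%, and CCAAT in 37.2%, 38.6% and 37.5%. Over all RefSeq promoters of this length, the AP-1 site was in 7.93%, the HNF1 half-site motif in 2.62% and TATAAA in 14.2%. A match in such a window is a description of its letters.

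Set against ischemia set A, set B differed in 1 gene of 11664 (0.00857%), with 587 genes at an unadjusted p under 0.05. Slc5a12, a lactate transporter of the early proximal tubule, stood at 153, 119, 129.7 and 145 CPM in control and 75.2, 28.4, 62.2 and 30.03 CPM in set B, and at 9.34 to 17.5 CPM in set A. Set B was higher than set A by 1.85 ± 0.28 on the log2 scale (adjusted p = 0.0328), with no overlap between the 4 and 4 kidneys. A fit of these 8 kidneys alone called no gene, with 336 at an unadjusted p under 0.05. Without set B kidney 1, 2, 3 or 4, the number of genes called was 0, 3, 0 and 7, with 753, 636, 665 and 694 at an unadjusted p under 0.05. The threshold was met by few genes, which does not show that the sets were alike. Both sets share the same 4 controls, so their fold changes are not independent. Side by side, Mt2 averaged 449 CPM in set B and 399 CPM in set A, Clu 157 and 131 CPM, Sox9 93.6 and 122 CPM, Plin2 87.5 and 138 CPM, Slc34a1 426 and 421 CPM, and Lpl 85.9 and 119 CPM.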

How the data were processed

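Stranded mRNA libraries of 12 kidneys were made by the authors, and, per the labels, STAR, the mm10 genome and HTSeq were used for mapping and counting. The versions, the annotation release and the strand setting of the counting are not given in the sources used here. The deposited values are raw counts of 23420 genes without normalization. Groups follow the titles, and no column was left unmatched.

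Tests were run in edgeR 4.0.16 (R 4.3.3). Its filter on low counts (minimum count 10, minimum total 15) chose the genes, TMM set the library sizes, and 1 quasi-likelihood model with 3 group coefficients was fitted to all 12 kidneys, with two-sided tests adjusted by Benjamini and Hochberg over 11664 genes (threshold 0.05). Since the 12 kidneys share a fit, set A adds to the estimate of the spread. Principal components used log2 CPM with a prior count of 2. A count of 3 per library was taken as the floor. A ratio to it is not a lower bound on the change, because zeros here cannot be read as absence. Counting intervals are exact binomial (Clopper-Pearson) at 95% and, like the floor, cover counting error only, with no allowance for duplicate reads. P-values set a difference between groups against the spread between kidneys, as estimated from all 12 of them. The procedure was run on simulated counts with 200 changed genes. These were drawn from the fitted model itself, so the run does not cover the frequent zeros of this table. DESeq2 1.42.0, limma 3.58.1, pandas 2.3.3, NumPy 2.4.6, SciPy 1.17.1 and matplotlib 3.10.9 were also used.

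Named genes were the 15 largest rises and falls that passed, at 2 or more average log2 CPM (edgeR's log2 of an average level), with no overlap between groups and no entry in the readable pathway and gene tables of the study, the 6 called genes with the largest rises and falls in mean CPM, again with no overlap, the called member of each list with the largest rise and fall at 1 or more average log2 CPM, further list members as examples, and cell type markers. Examples were chosen after their values were seen. A few genes that the rule or lists name are not reported here, and they stay in the counts, sums and medians. The gene lists and markers, and the comparison itself, were chosen with earlier results of these data known. Positions are from GENCODE vM21 on the same build.

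Alternatives were RLE size factors, DESeq2, limma-trend, no low-count filter, a minimum of more than 1 CPM in 4 kidneys, the groups compared fitted alone, a replicate block, thinning to 15367342 counts, robust dispersions, and leaving out each of the 8 kidneys. Replicate numbers did not pair the kidneys.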

Additional observations from a re-analysis of the deposited data

Results flagged for a closer look

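In a group of 4 kidneys, a value was marked when its gap to the nearest other kidney, divided by the range of the group, exceeded Dixon's 95% critical value for 4 values. Of 208 groups of values examined, 20 were marked, and chance marks about 1 in 20. In set B, kidney 4 was the highest for Wfdc2 (ratio 0.858), Kcnt1 (0.931) and Adamts4 (0.852) and the lowest for C1qtnf3 (0.834). Kidney 2 was the highest for Akap12 (0.83), Kcng1 (1.0) and Slc22a7 (0.983) and the lowest for Emx1 (0.849). Kidney 1 was the highest for Akr1c21 (1.0) and Ces1d (0.886), and the lowest in the share of counts taken by the genes called higher (33.6%, ratio 0.832).

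In the controls, kidney 1 was the lowest for Cyp4b1 (0.845) and Abcc3 (0.932) and the highest for Slco2a1 (0.89). Kidney 2 was the highest for Plch2 (1.0), kidney 3 for Spns2 (0.862), Ift43 (0.85) and Mthfd2 (0.915), and kidney 4 for Akap12 (0.862) and Lcn2 (1.0). A ratio of 1.0 marks a gene whose other 3 kidneys held no count.

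Slc5a12, a lactate transporter of the early proximal tubule, was marked because its change from control differed between the ischemia sets. It was lower than control in both, with a log2 fold change of -1.48 ± 0.28 (SE) in set B, and set B was above set A by 1.85 ± 0.28 (adjusted p = 0.0328 in the edgeR fit of 12 kidneys). The difference did not pass in a fit of these 8 kidneys alone.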

How the results depend on the processing

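The counts of genes higher (1269) and lower (1390) in set B stayed within 1.5 times under all 17 alternatives. Leaving out a kidney gave 1057 to 1193 higher and 1146 to 1343 lower, DESeq2 gave 1558 and 1509, and limma-trend 1356 and 1605. Same-numbered control and set B kidneys did not deviate together (correlations of -0.06 to 0.01 over genes), so the replicate block, which gave 1177 higher and 1354 lower, is not a pairing. For set B against set A, the count of 1 gene became 0 in the fit of only the groups compared, lay between 0 and 7 without a set B kidney, and stayed at 1 with the replicate block, which was added after seeing the data; the cause was not tested. Of 97 named genes, none reversed, 81 were called in every alternative, 3 were called in every alternative that gave them an adjusted p, and 13 lost the call in at least 1. The count of called members moved by over 1.5 times in 9 of 34 lists. Totals of 15367342 to 39155807 counts limit genes at a few CPM, where zeros are frequent.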

Other observations

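Blood genes gave further values. Beta-s, the label of a beta-globin gene in the table, stood at 55.3, 71.9, 117 and 90.8 CPM in control and at 31.7, 14.7, 20.0 and 19.2 CPM in set B, so that every set B kidney was below every control. Hba-a1 and Hba-a2 were listed at 0 in all 8 kidneys. The part of blood left in the tissue in any result was not tested.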
